A study of Homo sapiens with 3 samples.

Results

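The genes that encode eukaryotic translation initiation factors were taken as all protein-coding RefSeq genes on GRCh38 whose symbol is EIF followed by a digit, with no hyphen. The rule found 56 genes among 20056 protein-coding genes, and 90 further EIF symbols are not protein-coding and were left out. EIF1AY lies on chromosome Y, which none of the peak lists covers, so 55 of 19974 protein-coding genes on chromosomes 1 to 22 and X were measured. Their median length was 22.7 kb, against 24.2 kb over all protein-coding genes, with a range of 1.92 to 371 kb. The mark is lactylation of histone H4 at lysine 12 (H4K12la), profiled by CUT&Tag: a transposase is tethered by an antibody to chromatin that carries the mark. The cells were untreated cultures of established human lines of renal carcinoma, with 1 library from 786-O (replicate 2) and 2 from Caki-1 (replicates 1 and 2). As background, 786-O carries no working VHL tumour suppressor, while the VHL of Caki-1 is intact. Nothing in the labels says that the Caki-1 replicates were separate cultures.

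Initiation factors bring a ribosome, a charged initiator tRNA and an mRNA together at a start codon. The factor eIF2 carries the initiator tRNA in a GTP-bound form, and eIF2B recharges eIF2 with GTP after each round. Stress-activated kinases phosphorylate eIF2 and so block that recharging. The large eIF3 complex holds the small ribosomal subunit, while eIF4E binds the mRNA cap and recruits the scaffold eIF4G and the helicase eIF4A. Small binding proteins controlled by mTOR hold eIF4E back. Histone lactylation draws its acyl group from lactate, which clear cell renal carcinoma makes in quantity, and several histone lactylation marks have been found at promoters of active genes.

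The lists held 62777 peaks in 786-O, and 60760 and 67839 peaks in the Caki-1 libraries. A peak has a summit signal in the lists of 786-O and Caki-1 replicate 1 and a score in that of Caki-1 replicate 2, with list medians of 21, 21 and 48. Paired Caki-1 values below are in the order replicate 1, replicate 2. These values are the authors' own per peak, were not scaled between libraries, and are compared only by rank within a list (percentile, 100 highest). The sources used here do not give the read depth. Of the renal markers reported here, CDH16 had a peak within 1 kb of a start site (a start-site peak) in all 3 libraries, PAX8 in both Caki-1 libraries only, PAX2 in 786-O only, CDH6 in 786-O and Caki-1 replicate 2, and HNF4A and LHX1 in none. The markers of other cells (PTPRC, CD3E, PECAM1 and ALB) had none in any library. With 3 libraries there are 3 labelings and a smallest p of 0.333, so no test between the lines was made.

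The promoters below show the range of base composition among these genes, from RefSeq on GRCh38.p14, as the 250 bases before the start site, 5′ to 3′ along the gene, with each CG in capitals. EIF2A (chr3:150546537-150546786, plus strand, 28 CG) and EIF3J (chr15:44536897-44537146, plus strand, 29 CG) are shown because they were among the 5 highest of the family by the lowest of their ranks over the 3 libraries. EIF3B stood above both by that measure and has a listed start, but is not printed. It held 17 CG, the median over all genes with a listed start. EIF5AL1 (chr10:79512283-79512532, plus strand, 1 CG) and EIF3C (chr16:28688308-28688557, plus strand, 3 CG) are shown because they had no peak.
EIF2A: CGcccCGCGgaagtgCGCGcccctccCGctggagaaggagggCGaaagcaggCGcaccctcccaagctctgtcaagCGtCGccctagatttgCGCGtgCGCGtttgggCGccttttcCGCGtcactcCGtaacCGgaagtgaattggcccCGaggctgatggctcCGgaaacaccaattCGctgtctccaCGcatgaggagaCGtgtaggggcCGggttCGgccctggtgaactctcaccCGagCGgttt
EIF3J: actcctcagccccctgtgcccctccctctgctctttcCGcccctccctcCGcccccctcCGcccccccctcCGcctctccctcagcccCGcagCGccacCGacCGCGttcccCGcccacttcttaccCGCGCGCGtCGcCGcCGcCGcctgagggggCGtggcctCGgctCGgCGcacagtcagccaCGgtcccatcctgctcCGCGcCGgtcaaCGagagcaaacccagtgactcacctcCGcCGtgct
EIF5AL1: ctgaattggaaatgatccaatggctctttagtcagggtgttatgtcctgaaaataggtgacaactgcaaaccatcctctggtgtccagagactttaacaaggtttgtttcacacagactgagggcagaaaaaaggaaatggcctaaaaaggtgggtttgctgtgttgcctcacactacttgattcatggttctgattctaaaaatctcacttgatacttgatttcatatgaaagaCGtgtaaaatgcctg
EIF3C: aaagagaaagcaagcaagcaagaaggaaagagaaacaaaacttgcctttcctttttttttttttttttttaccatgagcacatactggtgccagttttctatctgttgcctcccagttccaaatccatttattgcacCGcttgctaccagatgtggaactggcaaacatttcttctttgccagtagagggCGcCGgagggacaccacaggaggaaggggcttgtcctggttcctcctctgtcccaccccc

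The next pair are the promoters of EIF2S3 (chrX:24054706-24054955, plus strand), which had a start-site peak in every library, and of its close copy EIF2S3B (chr12:10505640-10505889, plus strand), which had none. They are identical at 234 of 250 bases (93.6%), and capitals mark the 16 bases that differ.
EIF2S3: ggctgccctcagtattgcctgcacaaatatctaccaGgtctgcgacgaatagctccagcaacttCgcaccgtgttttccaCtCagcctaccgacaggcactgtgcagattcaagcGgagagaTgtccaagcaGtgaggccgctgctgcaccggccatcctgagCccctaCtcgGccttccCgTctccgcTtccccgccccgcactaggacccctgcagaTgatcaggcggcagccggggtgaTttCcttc
EIF2S3B: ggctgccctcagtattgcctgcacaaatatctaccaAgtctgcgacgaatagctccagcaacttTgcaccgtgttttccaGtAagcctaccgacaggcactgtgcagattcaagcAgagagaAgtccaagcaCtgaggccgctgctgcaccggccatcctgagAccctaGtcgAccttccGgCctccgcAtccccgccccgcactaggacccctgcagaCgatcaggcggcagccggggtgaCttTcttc

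The last pair carry the hexamer CACGTG, the E-box bound by MYC and related factors, in capitals. EIF4E (chr4:98929134-98929383, minus strand) holds it at 2 places that begin 225 and 72 bases before the start, and EIF4B (chr12:53006206-53006455, plus strand) at 1 place that begins 22 bases before it.
EIF4E: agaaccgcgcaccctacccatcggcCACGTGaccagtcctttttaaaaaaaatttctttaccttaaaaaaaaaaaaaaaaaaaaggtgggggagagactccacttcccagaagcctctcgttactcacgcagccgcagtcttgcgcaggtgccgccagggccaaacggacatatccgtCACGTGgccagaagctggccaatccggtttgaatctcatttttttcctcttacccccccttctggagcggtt
EIF4B: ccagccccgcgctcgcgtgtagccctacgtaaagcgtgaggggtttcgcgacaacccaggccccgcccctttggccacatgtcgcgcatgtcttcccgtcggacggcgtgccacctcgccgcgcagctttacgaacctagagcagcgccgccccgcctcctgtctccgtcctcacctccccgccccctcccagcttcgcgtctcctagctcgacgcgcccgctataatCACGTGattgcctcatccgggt

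Most initiation factor genes carried the mark at their start. A start-site peak is one that overlaps the window of 1 kb on each side of a listed start, or of either annotated end for the 9 genes with no listed start. Of the 55 genes, 47 had such a peak in 786-O (85.5%), and 49 had one in each of Caki-1 replicates 1 and 2 (89.1%). Over all protein-coding genes the shares were 52.8% in 786-O, and 55.6% and 57.8% in the Caki-1 libraries. The 47 genes of 786-O were the 47 with a peak in all 3 libraries, against 45% of all genes, and 49 had one in both Caki-1 libraries, against 52.1%. 6 had a start-site peak in no library, against 35%.

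**Figure D1:**
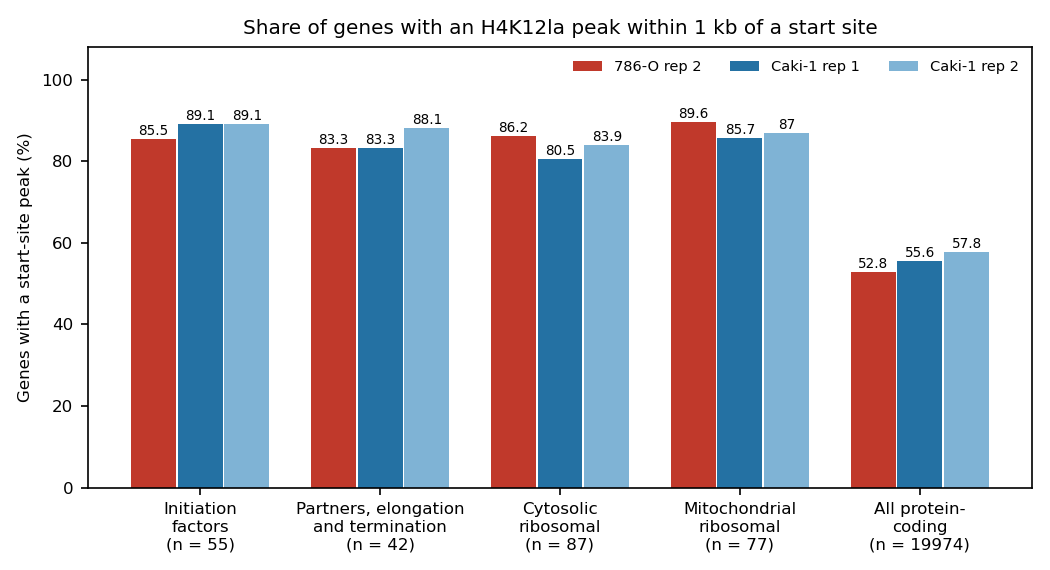
Share of genes (%) with an H4K12la peak within 1 kb of a start site, in 786-O and in the Caki-1 libraries, for initiation factors, other translation factors, ribosomal proteins and all protein-coding genes. The initiation factors stand at 85.5%, 89.1% and 89.1%, and all protein-coding genes at 52.8%, 55.6% and 57.8%.

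Over the whole gene extended by 5 kb on each side, 50 of 55 had a peak in 786-O, and 51 had one in each Caki-1 library, against 76.2% of all genes in 786-O, and 73.7% and 76.1% in the Caki-1 libraries. 50 had one in all 3 libraries (90.9%), against 65.4% of all genes, and 4 in none, against 15.2%. No member had a start-site peak in 786-O without a peak anywhere in its span in Caki-1, against 1.58% of all genes. EIF4EBP3 was the only one with start-site peaks in both Caki-1 libraries and nothing in its span in 786-O, against 2.4% of all genes.

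The 4 genes of start codon selection had a start-site peak in all 3 libraries. These are EIF1 and its close relative EIF1B, EIF1AX, and EIF5, which makes eIF2 hydrolyse its GTP at the start codon. EIF1AX, on chromosome X, had a signal of 53 in 786-O, and a replicate 1 signal of 41 with a replicate 2 score of 138 in the Caki-1 libraries. EIF1 had 48 in 786-O, and 37 and 194 in the Caki-1 libraries. EIF1B had 30 in 786-O, against 30 and 147 in the Caki-1 libraries, in a peak that also holds an end of its antisense neighbour EIF1B-AS1. For a neighbour that shares a peak, an end here and below is a listed start, or either annotated end where none is listed. By the lowest of its ranks EIF5 stood last of the 47 members with a peak in all 3 libraries. Its signal of 43 in 786-O stood at the 87.2 percentile. In Caki-1 its signal of 15 in replicate 1 stood at the 24.2 percentile, and its score of 71 in replicate 2 at the 68.5 percentile.

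Among the eIF2 subunits and the factors that deliver tRNA by other routes, 5 of 6 genes carried the mark in all 3 libraries. EIF2A, whose protein can deliver initiator tRNA without eIF2, had the highest ranks of this group. Its peak lay on chromosome 3 from 150546150 to 150547253 in 786-O, over the start. Its signal was 92 in 786-O, and its replicate 1 signal and replicate 2 score were 79 and 338 in the Caki-1 libraries, all at or above the 98.9 percentile. The peak also holds an end of SERP1, and the value belongs to both genes.

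EIF2S1 encodes the alpha subunit that the stress kinases phosphorylate. Its signal of 89 stood at the 99.1 percentile in 786-O, and in Caki-1 its signal of 36 stood at the 83.5 percentile and its score of 161 at the 91.8 percentile. ATP6V1D has an end in the same peak. EIF2D, another factor of tRNA delivery, stood at the 87.2 percentile in 786-O (signal 43) and the 98.2 and 98.6 percentiles in Caki-1 (signal 70, score 307). EIF2S2, the beta subunit gene, had 66 in 786-O, and 47 and 133 in the Caki-1 libraries. EIF2S3, the gamma subunit gene, had 39 in 786-O, and 32 and 153 in the Caki-1 libraries. Its copy EIF2S3B had no peak within 5 kb in any library.

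All 5 genes of the exchange factor eIF2B had a start-site peak in all 3 libraries. EIF2B4 had a signal of 61 in 786-O, and a replicate 1 signal of 41 with a replicate 2 score of 125 in the Caki-1 libraries. EIF2B2 had 47 in 786-O, against 31 and 141 in the Caki-1 libraries, and EIF2B1 had 43 in 786-O, against 46 and 160 in the Caki-1 libraries, in a peak that it shares with an end of GTF2H3. EIF2B3 had 42 in 786-O, against 39 and 128 in the Caki-1 libraries. EIF2B5, the catalytic subunit gene, had 1 peak of 1075 bp across its start in 786-O (signal 41). Caki-1 replicate 1 had 2 peaks here, a weaker one across the start that overlapped the 786-O peak (signal 15), and a stronger one centred at -942 bp, with negative positions upstream, that did not (signal 21). Caki-1 replicate 2 had a single peak of 1633 bp that overlapped both (score 76).

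The 4 kinase genes also all carried it. EIF2AK3 encodes PERK, the sensor of unfolded protein in the endoplasmic reticulum, and stood sixth of all members by the lowest of its ranks. Its peak on chromosome 2 (88627296 to 88628350 in 786-O) had a signal of 92 in 786-O, and a replicate 1 signal of 72 with a replicate 2 score of 503 in the Caki-1 libraries. The last is the highest score of any member, and an end of EIF2AK3-DT lies in the peak. EIF2AK1, the heme-regulated kinase gene, had 45 in 786-O, against 49 and 242 in the Caki-1 libraries. EIF2AK4, which encodes GCN2, the sensor of amino acid shortage, had 38 in 786-O, against 33 and 97 in the Caki-1 libraries. EIF2AK2, which encodes PKR, the sensor of double-stranded RNA, stood at the 73.3 percentile in 786-O (signal 31) and at the 97.1 and 94.0 percentiles in Caki-1 (signal 62, score 186). The 3 peaks of EIF2AK2 cover almost the same bases, but the summit lay 644 bp inside the gene in 786-O and 50 bp before the start in Caki-1 replicate 1.

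The eIF3 complex held the highest-ranked members and 2 of the 6 with no start-site peak, with 11 of 14 genes marked in 786-O and 12 of 14 in each Caki-1 library. EIF3E had the strongest signal of the family, 130 in 786-O, with a replicate 1 signal of 111 and replicate 2 score of 439 in Caki-1, at or above the 99.7 percentile. EIF3H stood next by the lowest of its ranks, with 105 in 786-O, and 91 and 374 in the Caki-1 libraries. Both lie on chromosome 8, have no listed start, and were measured at the higher annotated end, which in EIF3H is shared with UTP23. EIF3B, a core scaffold subunit gene, had 124 in 786-O, and 85 and 474 in the Caki-1 libraries, in a peak on chromosome 7 from 2353810 to 2354870 in 786-O. EIF3J, which encodes a loosely bound subunit, had 105 in 786-O, and 73 and 402 in the Caki-1 libraries, on chromosome 15 from 44536425 to 44537564, with an end of EIF3J-DT in the peak.

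The other eIF3 genes lay lower. EIF3M had a signal of 56 in 786-O, and a replicate 1 signal of 45 with a replicate 2 score of 86 in the Caki-1 libraries. EIF3F and EIF3A had the same signals, 41 in 786-O and 39 in replicate 1 of Caki-1, with scores of 161 and 113 in replicate 2. EIF3D, EIF3G, EIF3K and EIF3L completed the marked genes, with signals of 18 to 40 in 786-O, and signals of 18 to 31 and scores of 41 to 115 in the Caki-1 libraries. EIF3I had a weak peak at its start in the Caki-1 libraries alone, where its replicate 1 signal was 19 and its replicate 2 score 23, at the 42.3 and 10 percentiles. In 786-O its nearest peaks lay at -1429 bp (signal 37) and by the far end of the gene (signal 61), and both were also present in Caki-1. EIF3C and its near-identical copy EIF3CL, on chromosome 16, had no peak within 5 kb in any library.

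Of the cap-binding, scaffold and helicase genes, 10 of 12 carried a start-site peak in all 3 libraries, and 4 stood in the strongest 10% of every list. EIF4G2 encodes a scaffold that works without the cap-binding protein, and had a signal of 60 in 786-O, and a replicate 1 signal of 54 with a replicate 2 score of 200 in the Caki-1 libraries. EIF4E2, whose product binds the cap and represses translation, had 56 in 786-O, against 52 and 284 in the Caki-1 libraries, in a peak that holds an end of TIGD1. EIF4B, a cofactor of the helicase, had 49 in 786-O, against 47 and 172 in the Caki-1 libraries. EIF4E itself, the main cap-binding protein gene, had 73 in 786-O, and 43 and 135 in the Caki-1 libraries, in peaks of 1913 bp in 786-O and 1774 and 1898 bp in Caki-1.

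The scaffold gene EIF4G1 has 3 listed starts on chromosome 3, at 184314606, 184315164 and 184320263, and its strongest peak lay at the last of them in every library. That peak had a signal of 63 in 786-O, and a replicate 1 signal of 60 with a replicate 2 score of 173 in the Caki-1 libraries. The first start held a second, weaker peak in both Caki-1 libraries (signal 26, score 72) and none in 786-O. EIF4G3, a further scaffold gene, had 47 in 786-O, against 34 and 130 in the Caki-1 libraries, and EIF4H, a helicase cofactor gene, had 32 in 786-O, against 43 and 76 in the Caki-1 libraries. By the lowest of their ranks, the helicase genes stood below the other marked genes of this group. EIF4A1 had 41 in 786-O, against 26 and 36 in the Caki-1 libraries, EIF4A2 had 22 in 786-O, against 23 and 65 in the Caki-1 libraries, and EIF4A3, which also serves in the exon junction complex, had 26 in 786-O, against 40 and 119 in the Caki-1 libraries, in peaks that lay wholly upstream of its start in all 3 libraries.

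EIF4E1B and EIF4E3, which encode relatives of eIF4E, had no start-site peak in any library. In EIF4E1B the only peak of the extended span lay beyond its far end, within 1 kb of TSPAN17, with a signal of 60 in 786-O, and a replicate 1 signal of 64 with a replicate 2 score of 266 in the Caki-1 libraries. EIF4E3 held 3 peaks in 786-O, of signals 11, 16 and 19, and 1 and 3 peaks in the Caki-1 libraries, all centred at least 21379 bp from the nearest of its listed starts.

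Among the inhibitors of eIF4E, 3 of 4 genes were marked in 786-O and all 4 in both Caki-1 libraries. EIF4EBP1, the best known target of mTOR in this set, had a signal of 35 in 786-O, and a replicate 1 signal of 52 with a replicate 2 score of 143 in the Caki-1 libraries, in peaks of 1432, 1280 and 1600 bp at its lower annotated end. EIF4EBP2 had 42 in 786-O, and 42 and 114 in the Caki-1 libraries. Its strongest peak in Caki-1 replicate 2 was centred 1394 bp inside the gene, and that library had no peak over the start, where 786-O had one and where Caki-1 replicate 1 had one ending just before it. EIF4EBP3 had no peak within 5 kb in 786-O, and a replicate 1 signal of 43 with a replicate 2 score of 89 at its start in the Caki-1 libraries, at the 90.1 and 76.7 percentiles. EIF4ENIF1, whose product carries eIF4E into the nucleus, had 46 in 786-O, against 23 and 74 in the Caki-1 libraries.

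**Figure D2:**
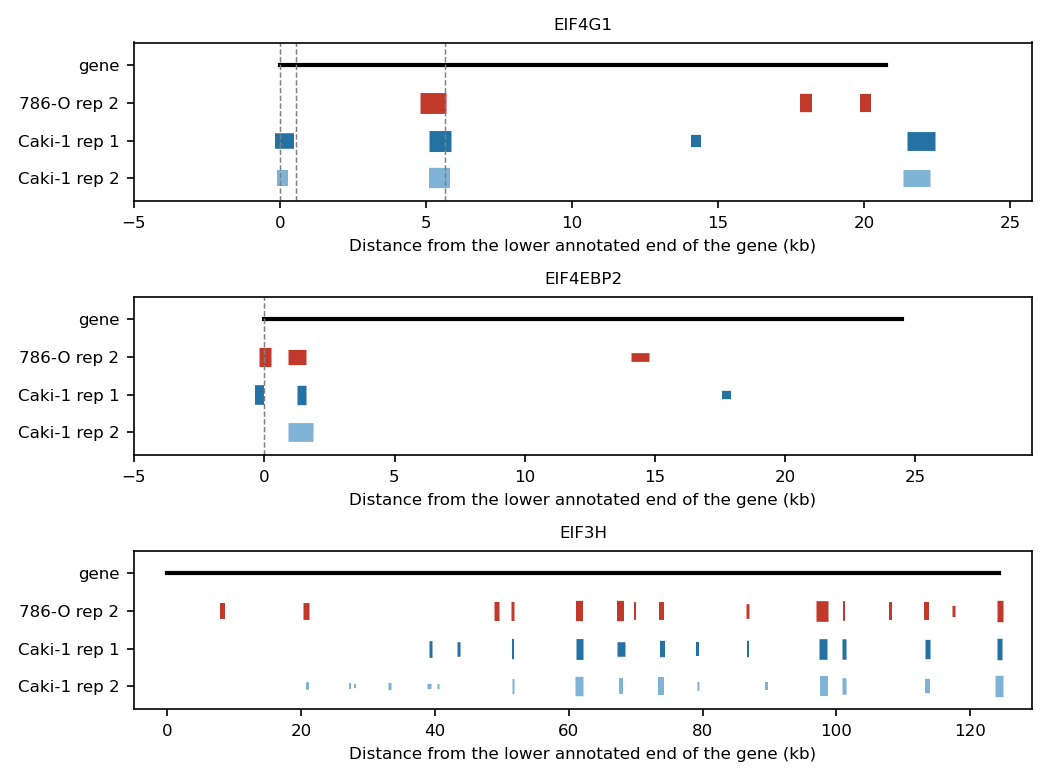
Peaks along EIF4G1, EIF4EBP2 and EIF3H by distance from the lower annotated end (kb), in 786-O above Caki-1 replicates 1 and 2. Black bars are the gene, dashed lines listed starts (EIF3H has none), and bar thickness grows with the rank within the list. EIF4G1 has a peak at its first start in the Caki-1 libraries only, and EIF3H has 15, 12 and 16 peaks along its length.

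The remaining factors act at subunit joining, in elongation or outside these groups, and 5 of 6 were marked in all 3 libraries. EIF5B, whose GTPase joins the ribosomal subunits, had the widest peaks of the family, 1947 bp in 786-O, and 1897 and 1940 bp in the Caki-1 libraries. Its signal was 85 in 786-O, and its signal and score were 58 and 190 in the Caki-1 libraries, in a peak that includes an end of TXNDC9. EIF5A, which carries the amino acid hypusine and eases elongation, had 73 in 786-O, against 43 and 120 in the Caki-1 libraries. EIF5A2, its close relative, had 37 in 786-O, against 41 and 162 in the Caki-1 libraries, and EIF6, which keeps the ribosomal subunits apart, had 45 in 786-O, against 32 and 117 in the Caki-1 libraries. EIF1AD had 30 in 786-O, against 24 and 89 in the Caki-1 libraries, in a peak with an end of BANF1. EIF5AL1, an intronless copy of EIF5A, had no peak in its extended span.

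The members with no peak at all in their span were thus EIF2S3B, EIF3C, EIF3CL and EIF5AL1, each of which has a close copy elsewhere in the genome. The sources used here do not say how reads that match several places were treated, and its part in these absences was not tested. EIF2S3 and EIF5A, the copies of the first and the last, were marked in all 3 libraries.

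**Figure D3:**
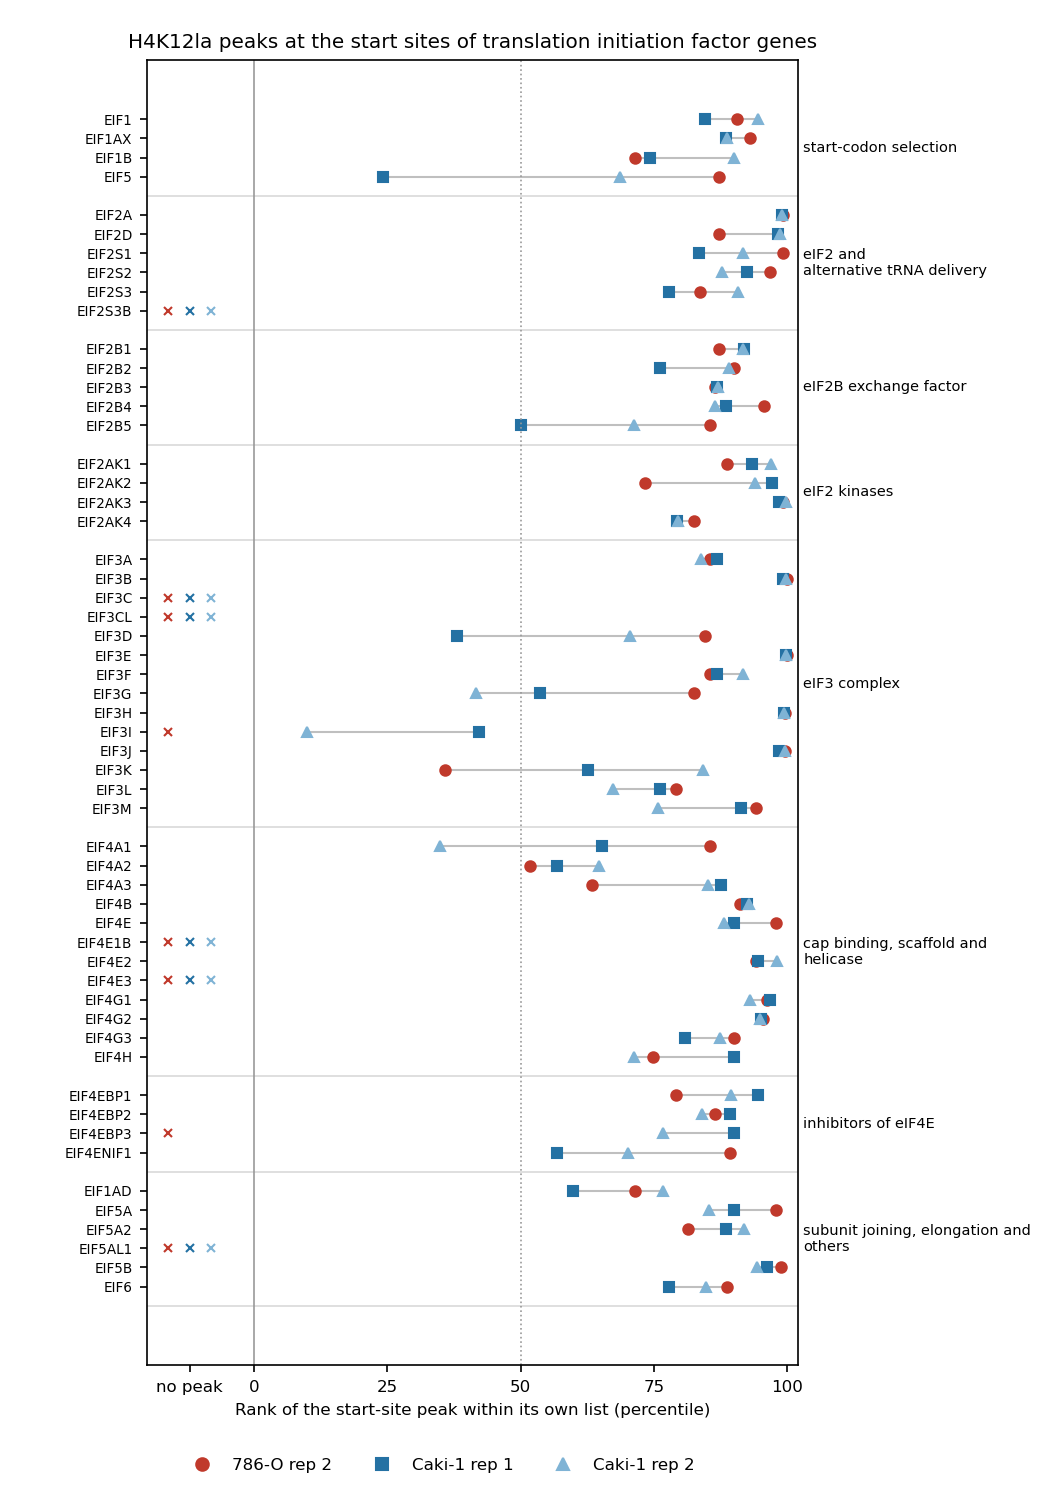
Rank of the strongest start-site peak within its own list (percentile) for each of the 55 genes, grouped by role, in 786-O (circles) and in Caki-1 replicates 1 and 2 (squares and triangles). Crosses at the left mark libraries without a start-site peak, and 47 genes have a peak in all 3 libraries.

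Start-site peaks of the family stood high in each list. Their median rank was the 88.7 percentile in 786-O, and the 88.5 and 88.2 percentiles in the Caki-1 libraries, against medians of 85.5, 82.2 and 84.5 over all protein-coding genes with a start-site peak. 19 of the 47 peaks of 786-O (40.4%) stood in the strongest 10% of the list, and 22 and 21 of the 49 in the Caki-1 libraries (44.9% and 42.9%), against 38.7%, 35.2% and 37.9% of genes with a start-site peak. Among those with a CpG-rich promoter the shares were 43.3%, 38.2% and 41%, and among mitochondrial ribosomal protein genes 39.1%, 45.5% and 50.7%, so the family did not stand above these sets in every library. Median widths were 911 bp in 786-O, and 869 and 923 bp in the Caki-1 libraries, against 746, 763 and 869 bp. 11 of 55 genes (20%) stood in the strongest 10% of every list, against 11.5% of all genes. The share was 31% of the other translation genes described below, 18.2% of mitochondrial and 8.05% of cytosolic ribosomal protein genes. The 11 were the 10 highest by the lowest of their ranks, EIF3E, EIF3H, EIF3B, EIF2A, EIF3J, EIF2AK3, EIF4G2, EIF5B, EIF4E2 and EIF4G1, and EIF4B.

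Among those 10 genes, 7 had a peak that in every library also holds a listed start of another gene, or an annotated end where none is listed. The rank of such a peak cannot be assigned to one of the genes. Among all 47 members with a peak in all 3 libraries there were 12 such genes (25.5%), against 31.5% of all genes with a peak in all 3. The order of the 47 members by rank was closer between the Caki-1 libraries (Spearman's rho 0.815) than between 786-O and either of them (0.62 and 0.599). These coefficients describe genes within libraries, which share the base composition of each gene, and carry no test.

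Peaks lay over the start with a lean to the upstream side. Among genes with 1 listed start, the peak covered the start in 29 of 31 genes in 786-O, and in 27 and 29 of 33 in the Caki-1 libraries. Its centre lay at a median of -94 bp in 786-O, and -138 and -94 bp in the Caki-1 libraries, where negative is upstream, against 9, -7 and 11 bp over all such genes. The centre was upstream in 19 of 31 genes in 786-O (61.3%), against 48.5% over all such genes. In the Caki-1 libraries it was in 25 and 24 of 33 (75.8% and 72.7%), against 51% and 48.4%. EIF3B, EIF2AK3 and EIF4ENIF1 count among these, though their listed starts and peak centres lie inside the annotated gene. The summit was upstream of the start in 28 of 31 genes in 786-O (90.3%) and 28 of 33 in Caki-1 replicate 1 (84.8%), against 67.3% in both over all genes. Its median position was -107 bp in 786-O and -145 bp in Caki-1 replicate 1, against -63 bp in both.

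**Figure D4:**
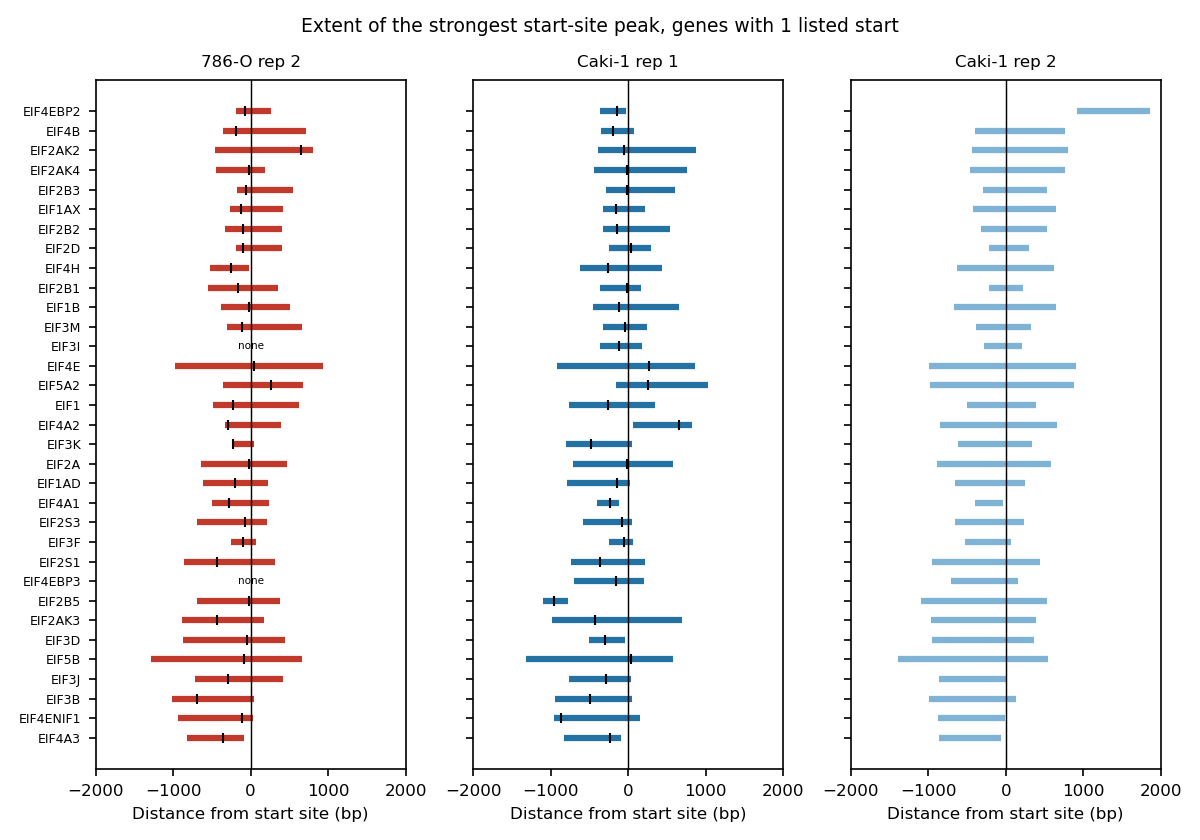
Extent of the strongest start-site peak around the start (bp, negative upstream) for genes with 1 listed start, in 786-O and Caki-1 replicates 1 and 2. Black ticks are summits, which the list of Caki-1 replicate 2 does not give in a usable form. Bars cover the start in 29, 27 and 29 genes.

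Nearly all start-site peaks of the family were common to both lines. Of the 50 in 786-O, 50 overlapped a peak of Caki-1 replicate 1 and 48 (96%) one of replicate 2, against 83.2% and 85.3% over all genes. Of the 52 in Caki-1 replicate 1, 48 (92.3%) overlapped 786-O, and of the 50 in replicate 2, 47 (94%) did, against 78.1% and 76.3%. Other peaks in the extended span were shared less, at 55.4% and 56.5% of those of 786-O, against 38.7% and 42.8% over all genes. In the other direction, 47.8% of those of Caki-1 replicate 1 and 40% of those of replicate 2 overlapped 786-O, against 40.3% and 38.7% over all genes. Sharing of these other peaks was also incomplete between the Caki-1 libraries. It was 67.3% of those of replicate 1 and 54.8% of those of replicate 2, against 60.6% and 52.6% over all genes.

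Away from the members' own starts, the family held 92 peaks in 786-O, and 113 and 135 in the Caki-1 libraries. That is 3.54 per 100 kb of extended span in 786-O, and 4.35 and 5.2 in the Caki-1 libraries, against 2.68, 2.58 and 2.94 over all genes. Some of the family's peaks counted here lay within 1 kb of a neighbouring gene's start, such as that of TSPAN17 beside EIF4E1B. Counted over the whole extended span, start-site peaks included, EIF3H and EIF4G3 held the most peaks. EIF3H, at 124.2 kb, had 15 in 786-O, and 12 and 16 in the Caki-1 libraries, and EIF4G3, at 370.6 kb, had 14 in 786-O, and 14 and 15 in the Caki-1 libraries. Without these genes the densities away from starts were 3.12, 4.28 and 5.09 per 100 kb. With start-site peaks included, all members had 5.47, 6.35 and 7.12 per 100 kb in the 3 libraries, against 3.46, 3.4 and 3.79 over all genes. Mitochondrial ribosomal protein genes had 6.48, 7.62 and 7.34, and cytosolic ones 9.13, 8.03 and 8.72, so the family stood below these sets in each library. The densities are ratios of totals, in which long genes weigh most. Over the whole extended span EIF3E had 7, 9 and 8 peaks, EIF2AK3 had 5, 6 and 7, and EIF5B had 3, 7 and 8.

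Over all genes with a listed start, base composition went with the presence of a peak. Of the 46 genes with a listed start, 38 (82.6%) had a CpG-rich promoter, meaning a GC content of at least 55% and at least 0.65 of the CpG that this content predicts, against 53.1% of all genes with a listed start. Medians were 64.6% GC and 22 CpG in 250 bases, against 62% and 17. Of the 38, 34 had a peak in all 3 libraries (89.5%), against 63.9% of all genes with such a promoter. Of the 8 others, 5 did (62.5%), against 29.4%. 9 of the 38 (23.7%) stood in the strongest 10% of every list, against 17.3%. EIF5AL1 and EIF3C, printed above, had the lowest CpG content and no peak. EIF4E1B, EIF4E3 and EIF2S3B had no start-site peak either, although their promoters were CpG-rich, and EIF4E1B had the highest GC content of the 46 (78.8%). EIF5AL1, EIF3C and EIF2S3B each have a close copy elsewhere in the genome. The part of reads that match several places in their lack of a peak was not tested. The share of members with a peak was above that of all genes within each class, and no test was made. The classes do not match members to genes of like CpG content. Of the 8 others, the 5 with a peak in all 3 libraries had 0.7 to 1.09 of the CpG predicted and missed only the GC limit. EIF5AL1, EIF3C and EIF4EBP3 stood at 0.1, 0.22 and 0.58.

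**Figure D5:**
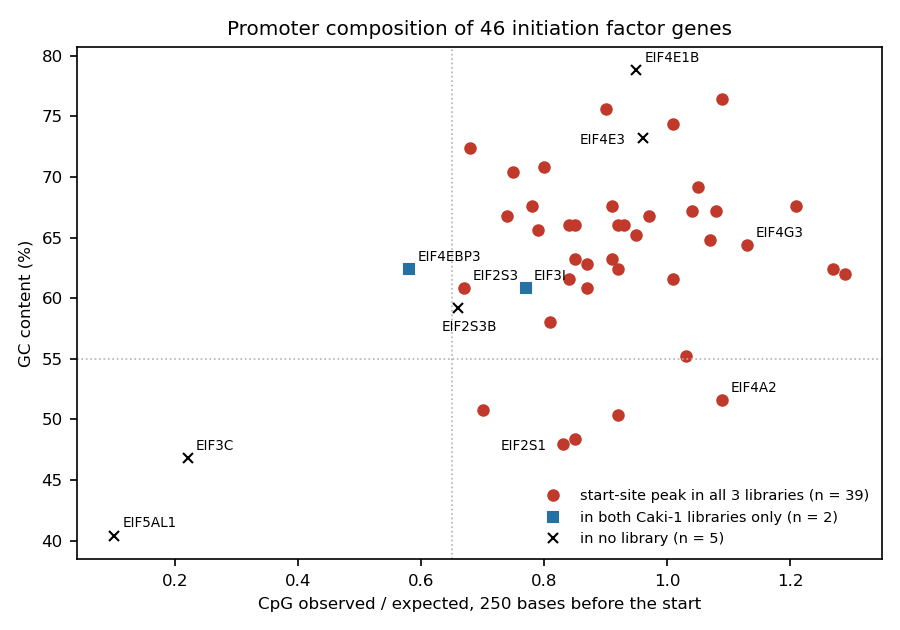
GC content (%) against observed over expected CpG in the 250 bases before the outermost listed start of 46 initiation factor genes, by presence of a start-site peak. Dotted lines mark 55% GC and a ratio of 0.65. EIF5AL1 and EIF3C lie apart at the lower left with no peak, and 39 genes have a peak in all 3 libraries.

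Motifs were searched on both strands in the 300 bases around each listed start (250 before, 50 after). The E-box CACGTG, shown above in EIF4E and EIF4B, was in 12 of 46 members (26.1%), against 10.9% of all genes and 13% of those with a CpG-rich promoter. 11 of the 12 had a start-site peak in all 3 libraries, against 58.9% of all genes with the hexamer. Of all 46 members with a listed start, with or without the hexamer, 39 (84.8%) had one. The ETS motif CCGGAAG was in 13 members (28.3%), against 16.5% of all genes and 22.3% of those with a CpG-rich promoter, and CCAAT, the NF-Y motif, in 21 (45.7%), against 42.1% and 39.2%. The GC box GGGCGG was in 34 (73.9%), against 64.2% of all genes and 85.3% of those with a CpG-rich promoter. AAGATGGC (YY1) was in 4 members (8.7%), against 4.67% and 5.74%, and GCATGCGC (NRF1) in 2 (4.35%), against 4.89% and 6.88%. TATAAA was in 2 (4.35%), against 12.4% and 5.92%, and TGACGTCA (CRE) in none, against 3% and 4.21%. A match is a description of letters and not of binding.

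Other genes of translation were marked at similar shares. Of 42 genes for initiation partners, elongation, termination and mitochondrial initiation, 35 had a start-site peak in 786-O (83.3%), and 35 and 37 had one in the Caki-1 libraries (83.3% and 88.1%), with 33 in all 3. Cytosolic ribosomal protein genes (87) stood at 86.2% in 786-O, and 80.5% and 83.9% in the Caki-1 libraries, with 72.4% in all 3 libraries, against 85.5% of initiation factors. Mitochondrial ribosomal protein genes (77) stood at 89.6%, 85.7% and 87%, with 81.8% in all 3. The 5 highest of the 42 by the lowest of their ranks were, in order, PABPC1, BZW2, RPS6KB1, ETF1 and PAIP1. PABPC1 had a signal of 135 in 786-O, and a replicate 1 signal of 90 with a replicate 2 score of 335 in the Caki-1 libraries. PAIP1 had 84 in 786-O, against 83 and 286 in the Caki-1 libraries. RPS6KB1, the mTOR target S6 kinase gene, had 83 in 786-O, against 142 and 842 in the Caki-1 libraries. BZW2, a regulator of start codon choice, had 86 in 786-O, against 81 and 335 in the Caki-1 libraries. ETF1, the release factor that recognises stop codons, had 87 in 786-O, against 70 and 341 in the Caki-1 libraries. EEF2, PABPC4, PPP1R15A and GSPT2 had no start-site peak in any library.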

How the data were processed

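CUT&Tag libraries of H4K12la were analysed from 1 peak list per library, 1 of 786-O and 2 of Caki-1; a further 786-O replicate was not analysed here. The submitters' processing notes list fastp 0.19.6, Bowtie2, deepTools and the build GRCh38 without saying what each did; the sources used here do not give the peak caller, its threshold, any control or the depth. The lists have no header, so column meanings were read from the values. The deposited width is in bp. The last column was read as the deposited summit signal in 786-O and Caki-1 replicate 1 and as a deposited score in Caki-1 replicate 2, where column 5 fell within its own peak for only 9.65% of peaks and gave no summit.

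Overlap of at least 1 bp was counted, with Python 3.11.15 and pandas 2.3.3, against gene spans extended by 5 kb and against windows of 1 kb around start sites, from RefSeq GRCh38.p14. Overlap counting was tested on simulated data. Start sites were listed for 46 members and 15812 genes; for the others either annotated end was used. Ranks are percentiles with ties at their mean, the strongest start-site peak standing for each gene. Composition was taken at the outermost listed start. 1 renal marker of the fixed list is not reported here. The ribosomal lists leave out kinase genes and RPS19BP1. Genes with full values are the 10 with the highest lowest rank, every gene without a start-site peak in some library, and the 5 with most peaks; other values are given by role. The members and lists were chosen with earlier results of these data known, and the CpG-rich class, its start site and the count of shared gene ends after values were seen. Alternatives were the window, the extension, the list strength, the overlap, leaving out each library, listed starts only and the first listed start for composition.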

Additional observations from a re-analysis of the deposited data

How the results depend on the processing

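Of 71 alternative values, 68 stayed within 1.5 times the count reported, and 3 moved. The tally is a weak measure of stability, since some of these values were fixed by construction. A start-site count does not depend on the span extension, nor a span count on the start-site window. The 786-O start-site count does not depend on the Caki-1 libraries. For counts of 47 to 50 among 55 members, only a large fall counts as a move. The 3 that moved were alternatives to counts reported as 0 or 1. Without the extension of the gene span, members with a start-site peak in 786-O and no span peak in Caki-1 numbered 2 in place of 0 (EIF4A1 and EIF4A3), and those with the reverse pattern 2 in place of 1 (EIF4A3 and EIF4EBP3). With an extension of 10 kb the reverse count was 0. EIF4A3 enters both because its peaks lie upstream of the gene.

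Over the alternatives, the count with a start-site peak in all libraries used ran from 39 to 49. The lowest was among the 46 members with a listed start, and the highest, of 55, was without 786-O. With all 3 libraries the highest was 48. The count was 42 with peaks above the median rank of each list only, which loses EIF3D, EIF3G, EIF3K, EIF4A1 and EIF5. The span count ran from 42, among the same 46 members, to 51. Leaving out each library in turn gave 47 to 49 start-site and 50 to 51 span counts in all remaining libraries. The patterns of a single line stayed at 0 for 786-O and 1 for Caki-1 without either Caki-1 library, and have no value without 786-O. CpG-rich members were 37 with the first listed start in place of 38, and 33 in place of 34 of them had a peak in all 3 libraries.

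No paired analysis was possible because the lines share only 1 replicate number. 786-O has only 1 library here, depth is not given, and presence or absence of a weak peak depends on each list's threshold.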
